A study of Mus musculus with 84 samples.

Results

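The 10 immediate early genes Fos, Fosb, Junb, Egr1, Egr2, Arc, Npas4, Nr4a1, Ier2 and Btg2 were followed through 7 tissues of leptin-deficient and wild-type mice. They were taken by gene symbol, and each matched 1 of the 49671 rows of the count table, so 10 genes of 49671 are described here. The mice were ob/ob on a high-fat diet (HFD), ob/ob on a normal diet (ND), wild type (WT) on HFD and WT on ND, with 3 mice in each of these 4 groups. ob/ob mice carry a mutation of the leptin gene that leaves them without working leptin, the hormone of fat cells that restrains feeding, and they become obese on either diet. Every mouse gave aorta, epididymal fat (the fat depot beside the testis), heart, hippocampus, hypothalamus, liver and skeletal muscle, which makes 84 libraries. The design text dates dissection to 20 weeks and does not say from which event the weeks count. Strain background, sex, the fat content of the diets and the interval between death and freezing are not given in the sources used here.

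Immediate early genes are switched on within minutes of a stimulus, without new protein synthesis, when kinase cascades and calcium activate the transcription factors SRF with its ELK partners, CREB and MEF2 already bound at their promoters. Most of them encode transcription factors, their mRNAs are short-lived, and in brain they are read as marks of recent neuronal activity. In other tissues growth factors, hormones, stretch and cell stress induce them, and so does handling of the tissue, so that their level in a dissected sample is a snapshot of the last minutes to hours before RNA was preserved.

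The members have different jobs. Fos, Fosb and Junb encode subunits of the AP-1 transcription factor. Egr1 and Egr2 encode zinc finger transcription factors, of which Egr2 also acts in myelinating Schwann cells, in T cells and in macrophages. Nr4a1 encodes an orphan nuclear receptor. Npas4 encodes a transcription factor of neurons that responds to calcium, and Arc encodes a cytoskeletal protein of dendrites that governs AMPA receptor traffic at synapses. Ier2 encodes a nuclear protein of the early growth response, and Btg2 an antiproliferative protein that also speeds mRNA deadenylation.

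Promoters of 4 members are shown because in epididymal fat Egr2 and Npas4 went one way and Fos and Btg2 the other. They are RefSeq sequences of build GRCm38.p6, 250 bases before and 50 after the annotated start, 5′ to 3′ on the gene's strand. Capitals mark the short cAMP response element (TGACG, or CGTCA on the other strand), the CArG box, which SRF binds, and the TATA element (TATAAA, or TTTATA on the other strand). The Egr2 start shown, 1 of 5 listed, is at chr10:67537619-67537918 (plus strand), Npas4 at chr19:4989922-4990221 (minus strand), Fos at chr12:85473640-85473939 (plus strand) and Btg2 at chr1:134079106-134079405 (minus strand).
Egr2: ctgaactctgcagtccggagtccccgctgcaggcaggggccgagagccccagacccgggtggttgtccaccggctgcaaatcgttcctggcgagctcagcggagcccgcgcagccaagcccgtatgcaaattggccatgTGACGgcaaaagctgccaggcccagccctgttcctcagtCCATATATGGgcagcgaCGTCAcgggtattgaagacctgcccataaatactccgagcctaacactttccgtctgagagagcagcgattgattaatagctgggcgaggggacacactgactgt
Npas4: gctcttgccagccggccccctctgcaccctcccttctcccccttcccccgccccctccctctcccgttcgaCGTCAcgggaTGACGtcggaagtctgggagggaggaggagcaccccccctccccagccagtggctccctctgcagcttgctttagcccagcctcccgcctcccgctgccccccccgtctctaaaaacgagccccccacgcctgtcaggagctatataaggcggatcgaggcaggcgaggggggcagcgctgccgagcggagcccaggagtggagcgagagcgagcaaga
Fos: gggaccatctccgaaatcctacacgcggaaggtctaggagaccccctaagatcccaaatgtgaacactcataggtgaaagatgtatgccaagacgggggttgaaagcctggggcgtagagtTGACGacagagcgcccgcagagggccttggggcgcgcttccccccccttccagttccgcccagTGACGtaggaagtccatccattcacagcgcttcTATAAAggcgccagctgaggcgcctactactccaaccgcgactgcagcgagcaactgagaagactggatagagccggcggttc
Btg2: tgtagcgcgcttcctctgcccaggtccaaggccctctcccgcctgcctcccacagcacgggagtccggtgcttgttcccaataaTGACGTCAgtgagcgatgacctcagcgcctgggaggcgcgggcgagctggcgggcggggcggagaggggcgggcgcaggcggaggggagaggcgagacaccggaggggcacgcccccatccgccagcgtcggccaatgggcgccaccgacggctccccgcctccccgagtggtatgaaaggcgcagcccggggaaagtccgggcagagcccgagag

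A promoter was listed for 7 of the 10 members, and all 7 held a short cAMP response element in at least 1 listed start, a motif found in 20.8% of the 32851 promoters of the table. For Egr2 it was in 3 of the 5 listed starts, and each of the other 6 members had 1 start. The full palindrome TGACGTCA, which contains the short one on both strands, was found in 1 of the 7, Btg2, against 1.79% of all promoters. A CArG box was found in 1 of the 7, Egr2, against 1.63% of all promoters, and the TATA element in 2 of the 7, Fos and Junb, against 13.6%. In Fos the TATA element began at position -33 relative to the start, and in Junb at position 0, the annotated start itself. The AP-1 site (TGACTCA or TGAGTCA, each the reverse complement of the other) was found in 0 of the 7, against 5.2% of all promoters. Only the 250 bases before and 50 after each start were searched. A motif not found there, such as a CArG box in Fos, may lie outside them. A match of letters is a description of sequence and does not show that a factor binds there.

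The libraries held 10499528 to 17040790 counts. Tissue identity was checked on marker genes, summed as TPM, a level per gene length and library depth. Neuron markers summed to 3065 to 4338 TPM in hippocampus and 1883 to 2721 TPM in hypothalamus, hepatocyte markers to 71160 to 104933 TPM in liver and cardiomyocyte markers to 22940 to 29892 TPM in heart. The libraries labelled aorta held much RNA of other tissue. In them brown adipocyte markers summed to 6647 to 18335 TPM and white adipocyte markers to 9078 to 20687 TPM, and erythroid markers to 7175 to 44413 TPM, against 206 to 1106 TPM for smooth muscle markers, so values called aorta are not those of vessel wall alone. White adipocyte markers in skeletal muscle ran from 352 to 28089 TPM between libraries. Ttr, a gene of the choroid plexus as well as of liver, ran from 56.4 to 19588 TPM in hippocampus. In whole tissue, fewer cells of a type and less RNA of a gene per cell cannot be told apart.

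Over all 12 mice, the order of the tissues, set by the mean of log2(TPM + 0.1), differed between members. TPM values were compared between neighbouring tissues in that order within the same mice (exact paired sign-flip test on log2(TPM + 0.1), two-sided, 60 comparisons, of which 27 passed an adjusted p of 0.05). The AP-1 subunit Fos was highest in epididymal fat, with a mean of 144.6 TPM (65.6 to 367.5 over 12 mice), above hypothalamus in 12 of 12 mice (exact p = 0.000488, the smallest this test can give, adjusted p = 0.00419). Hypothalamus came next with 42.7 TPM and then hippocampus with 34.3 TPM, a difference that passed narrowly (exact p = 0.0225, adjusted p = 0.0499). Muscle held 39.3, aorta 17.2, heart 5.93 and liver 3.46 TPM of Fos, and neither hippocampus and muscle nor heart and liver differed beyond their spread (exact test, adjusted p = 0.956 and 0.218). Fosb was at 4.85 TPM in hippocampus, 3.16 TPM in hypothalamus and no more than 2.0 TPM on average elsewhere. Junb was highest in epididymal fat and hippocampus, at 94.5 and 72.7 TPM, which did not differ beyond their spread (exact test, adjusted p = 0.193).

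Egr1 was highest in hippocampus, with a mean of 84.8 TPM against 33.6 TPM in hypothalamus, the next tissue on the log2 scale, and it was higher in hippocampus in 12 of 12 mice (exact test, adjusted p = 0.00419). Epididymal fat averaged 38.3 TPM of Egr1 but a median of 17.2 TPM, with 1 library at 189.4 TPM. Its relative Egr2 had another order. Egr2 averaged 35.7 TPM in epididymal fat and 2.65 TPM or less in every other tissue (11 of 12 mice higher in fat than in hippocampus, exact test, adjusted p = 0.00732). In WT ND mice alone Egr2 averaged 3.90 TPM in fat and 3.52 TPM in hippocampus. Nr4a1 was highest in skeletal muscle (mean 112.3 TPM, range 15.7 to 210.8), followed by hippocampus at 69.6 TPM, and these did not differ beyond their spread (exact test, adjusted p = 0.298). Liver was the tissue with the lowest Nr4a1, at 4.10 TPM.

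The synaptic gene Arc showed the steepest order: 137.8 TPM in hippocampus, 19.2 TPM in hypothalamus and 2.19 TPM in epididymal fat, each step seen in 12 of 12 mice (exact test, adjusted p = 0.00419 for both). Npas4 averaged 12.9 TPM in hippocampus, 4.92 TPM in hypothalamus and 2.75 TPM in epididymal fat. All other tissues averaged 0.248 TPM of Npas4 or less, and no count of Npas4 was found in any of the 12 livers. In WT ND mice alone Npas4 averaged 0.173 TPM in epididymal fat and 0.343 TPM in aorta. The 9 general neuron markers summed to at most 5.13 TPM in epididymal fat. Ier2 and Btg2 varied least between tissues. Ier2 ran from 10.4 TPM in hypothalamus to 47.6 TPM in epididymal fat, and Btg2 from 17.7 TPM in liver to 88.4 TPM in epididymal fat.

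**Figure D1:**
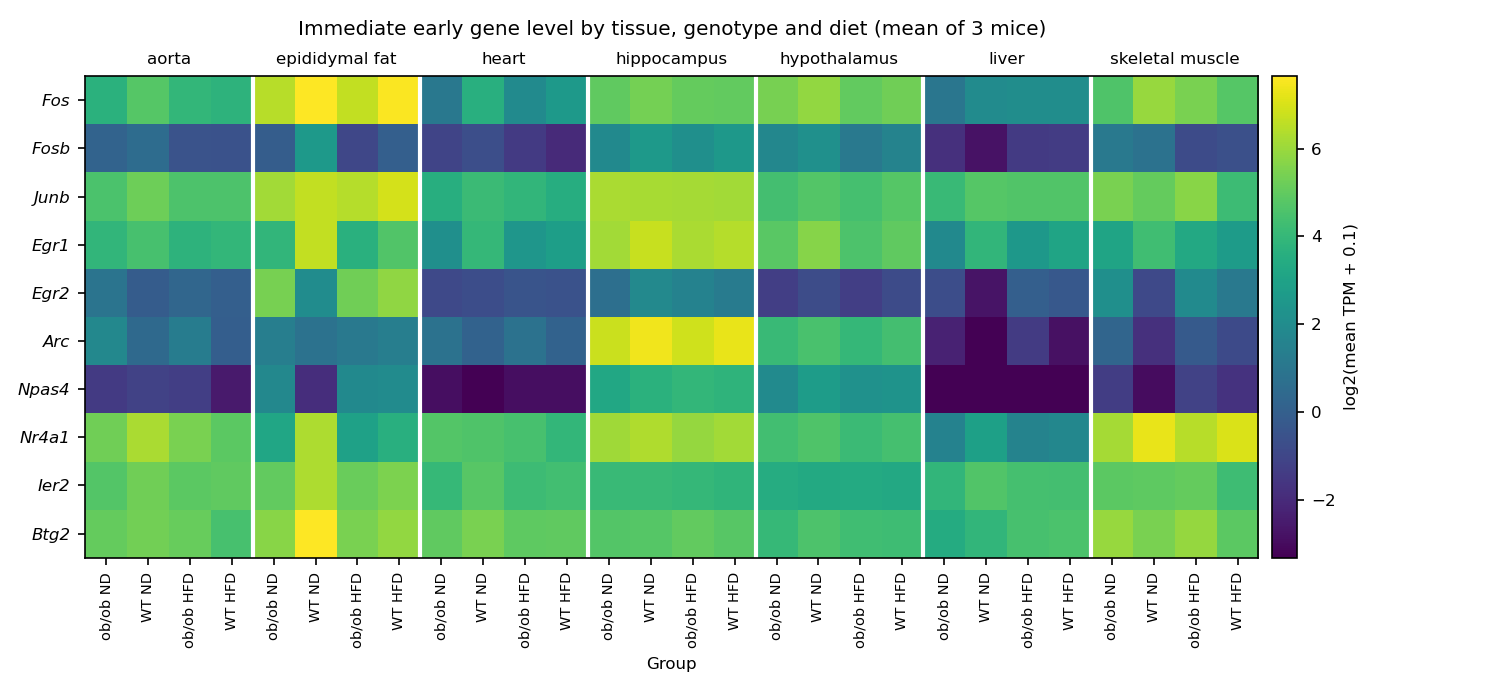
Mean TPM of each immediate early gene (rows) in the 28 groups of 3 mice (columns, grouped by tissue), as log2(mean TPM + 0.1) in colour. Arc and Npas4 are highest in hippocampus, Fos and Egr2 in epididymal fat. In epididymal fat the WT ND column differs from the other 3 for Egr2, Npas4, Fosb, Egr1, Nr4a1 and Btg2. It does not for Fos, with 199.4 TPM in WT ND and 189.7 TPM in WT HFD fat.

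For contrasts within a tissue, counts scaled to library size by TMM (CPM) are given, and ± after a log2 fold change is its standard error. A gene is said to rise or fall only where edgeR's quasi-likelihood test, adjusted over all genes of that tissue, gave a p under 0.05. Of the 70 combinations of member and tissue, 63 held enough counts to be tested. As a mean over both diets, 22 of 63 differed between ob/ob and WT mice, 6 higher and 16 lower in ob/ob. This is 34.9% where 31.8% of all genes tested in these tissues were called, so the share in both directions together is near the background. By direction, 25.4% of member tests were lower, against 15.1% of all genes, and 9.52% were higher, against 16.7%. On ND alone 21 of 63 differed, where 25.7% of all genes did. Of these, 4 were higher and 17 lower in ob/ob (27% of member tests lower, against 12% of all genes). On HFD alone 0 of 63 differed, where 9.98% of all genes were called; 9 of the 63 had an unadjusted p under 0.05. With no filter on low counts, edgeR called 35 combinations over both diets, 35 on ND and 6 on HFD. The share of all genes called without that filter is not given here, so these counts have no background to be read against. DESeq2 called 2 of 63 on HFD (12.2% of all genes), Egr1 lower in epididymal fat (log2 fold change -1.09 ± 0.41, DESeq2 adjusted p = 0.0423) and Btg2 higher in muscle (0.74 ± 0.23, DESeq2 adjusted p = 0.0398). The libraries of 1 mouse go into all its tissues, so counts over tissues are not independent.

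**Figure D2:**
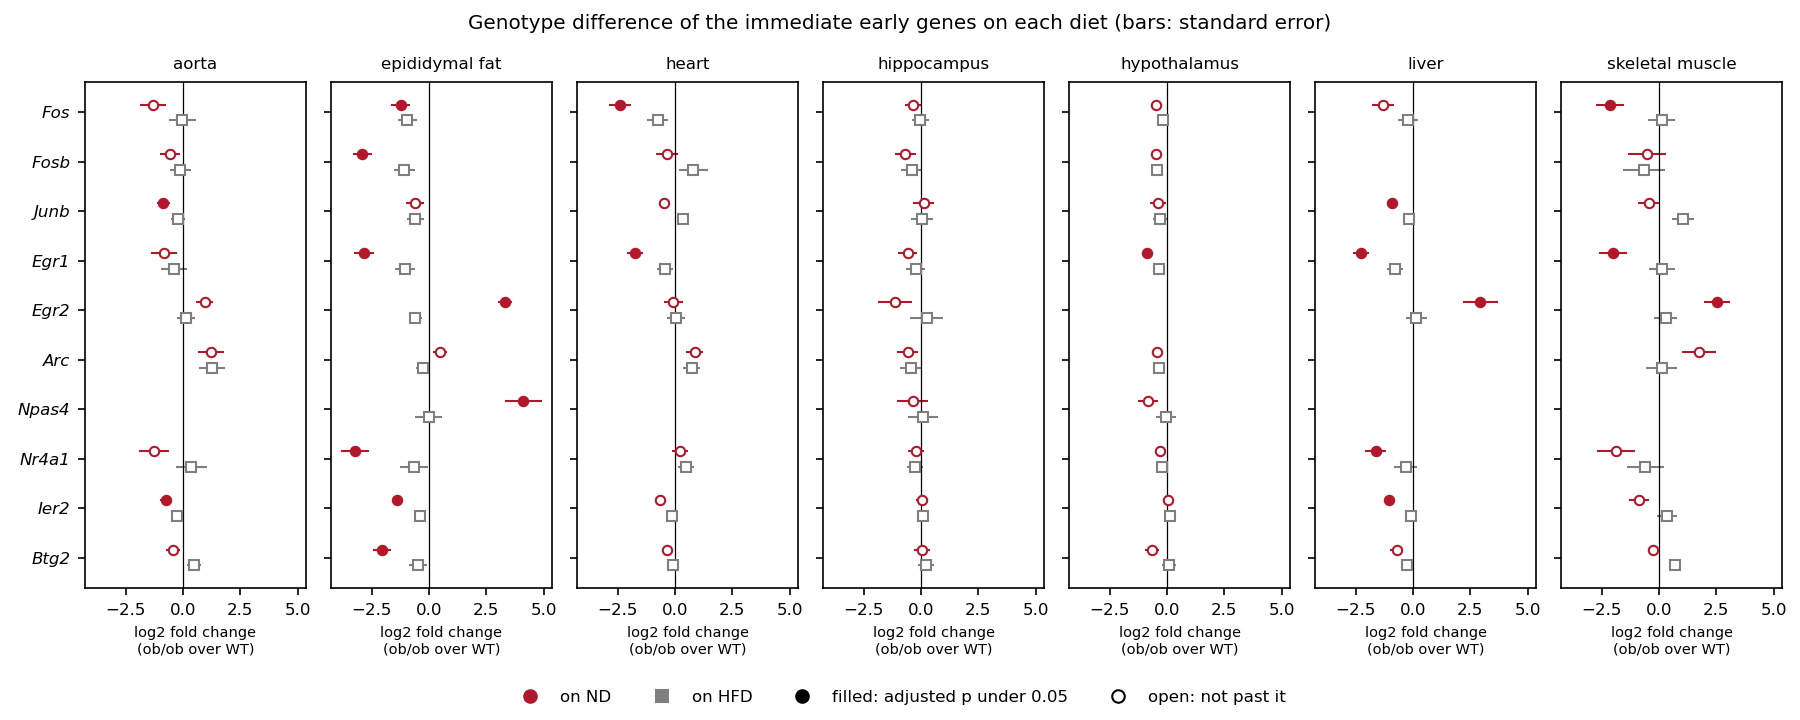
Log2 fold change of ob/ob over WT (horizontal axis) for each member (rows) in each tissue (panels), on ND (circles) and HFD (squares), with the standard error as a bar. Filled symbols passed an adjusted p of 0.05 by edgeR: 21 on ND and 0 on HFD.

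Epididymal fat held more calls of members on ND than any other tissue, 8 of the 21. There 8 of the 10 members differed between genotypes, 2 higher and 6 lower in ob/ob, in a tissue where 48.2% of all genes tested differed (25.2% higher and 23% lower). The median member was lower by a log2 fold change of -1.31, beside -0.01 for all genes.
Egr2 had 66, 42.7 and 37.7 CPM in ob/ob fat on ND, against 3.35, 5.05 and 6.15 CPM in WT fat on ND. The groups did not overlap, and Egr2 rose by a log2 fold change of 3.32 ± 0.32 (edgeR adjusted p = 1.57e-05). Npas4 had 2.69, 4.42 and 4.28 CPM in ob/ob fat on ND, against 0.319, 0.244 and 0.0732 CPM in WT fat on ND (4.12 ± 0.80, edgeR adjusted p = 0.00161). Every ob/ob value of this neuronal transcription factor lay above every WT value, at levels of a few CPM. The 3 WT libraries held 8 counts in all and the 3 ob/ob libraries 156, so Npas4 passed the count filter through the other groups.

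The other zinc finger gene went the opposite way. Egr1 had 20.8, 22.4 and 24.8 CPM in ob/ob fat on ND, against 95.9, 94.9 and 295 CPM in WT fat on ND (-2.84 ± 0.45, edgeR adjusted p = 0.000425). Fosb had 1.85, 1.87 and 1.58 CPM in ob/ob fat on ND, against 6.79, 11.6 and 21.5 CPM in WT fat on ND (-2.91 ± 0.41, edgeR adjusted p = 0.000192). Both genes fell without overlap of the groups, and WT mouse 3 was the highest of its group for each. Fos was at 53.9 to 83.2 CPM in ob/ob fat on ND and 80.1 to 300.2 CPM in WT fat on ND, where the groups overlapped (-1.23 ± 0.41, edgeR adjusted p = 0.0291). Without WT ND mouse 3 the difference of Fos shrank to -0.50 ± 0.29 and no longer passed (edgeR adjusted p = 0.183). Without any 1 of the 3 ob/ob ND mice it was between -1.02 and -1.34 and did not pass either (edgeR adjusted p between 0.055 and 0.0995). Junb did not pass (-0.61 ± 0.38, edgeR adjusted p = 0.205). As a mean over both diets, Fos fell in ob/ob fat (log2 fold change -1.09, edgeR adjusted p = 0.0135). That call of Fos passed without any 1 mouse, at -0.73 to -1.25.

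Among the remaining members, the nuclear receptor gene Nr4a1 had the largest fall. Nr4a1 had 8.15, 8.36 and 5.93 CPM in ob/ob fat on ND, against 29.5, 30.9 and 149 CPM in WT fat on ND (-3.22 ± 0.61, edgeR adjusted p = 0.00139). Btg2 had 40.3, 60.1 and 42.8 CPM in ob/ob fat on ND, against 139.5, 97.9 and 355.9 CPM in WT fat on ND (-2.05 ± 0.40, edgeR adjusted p = 0.00152). Again the groups stood apart and WT mouse 3 was highest. Ier2 ran from 15.5 to 17.7 CPM in ob/ob fat on ND and from 34.8 to 59.3 CPM in WT fat on ND (-1.39 ± 0.23, edgeR adjusted p = 0.000554). Arc, at 2.07 to 2.92 CPM in ob/ob and 1.20 to 2.61 CPM in WT fat on ND, did not pass (edgeR adjusted p = 0.191).

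The diet contrast in WT fat was read next. Between WT mice on HFD and WT mice on ND, 7 members differed, 2 higher and 5 lower on HFD, where 58.9% of all genes did (28.6% higher and 30.3% lower). Egr2 had 97.0, 57.1 and 60.5 CPM in WT fat on HFD, against the 3.35 to 6.15 CPM of WT fat on ND (3.87 ± 0.32, edgeR adjusted p = 3.73e-06). Npas4 had 1.84, 2.36 and 8.42 CPM in WT fat on HFD, against 0.0732 to 0.319 CPM in WT fat on ND (4.27 ± 0.80, edgeR adjusted p = 0.000885). Neither gene overlapped between the diets, and the 3 WT ND libraries held 8 counts of Npas4 in all. Fosb (-2.76 ± 0.40), Nr4a1 (-2.69 ± 0.59), Egr1 (-1.97 ± 0.43), Btg2 (-1.77 ± 0.39) and Ier2 (-0.79 ± 0.22) fell on HFD in WT fat, with edgeR adjusted p between 0.000165 and 0.0103. The call of Ier2 was lost without WT ND mouse 3 (-0.48 ± 0.19, edgeR adjusted p = 0.0515), WT HFD mouse 2 or WT HFD mouse 3 (edgeR adjusted p = 0.0501 and 0.0603). This contrast and the one between genotypes on ND share the 3 WT ND libraries.

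Fos, Junb (0.37 ± 0.38, edgeR adjusted p = 0.425) and Arc (0.57 ± 0.30, edgeR adjusted p = 0.118) did not pass. Fos had 194.5, 136.4 and 153.7 CPM in WT fat on HFD, against 124.5, 80.1 and 300.2 CPM in WT fat on ND (-0.06 ± 0.41, edgeR adjusted p = 0.909). In ob/ob fat, HFD against ND changed 0 of the 10 members past edgeR's threshold, as it did 0% of all genes, and DESeq2 called 0; 0 members had an unadjusted p under 0.05. Npas4 averaged 4.14 ± 2.71 CPM in ob/ob fat on HFD and 3.80 ± 0.96 CPM in ob/ob fat on ND (SD, n = 3 each). Egr2 averaged 47.5 ± 9.38 CPM in ob/ob fat on HFD and 48.8 ± 15.1 CPM in ob/ob fat on ND (SD, n = 3 each).

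The interaction, which takes the diet effect in WT mice from the one in ob/ob mice, passed for 7 of the 10 members in epididymal fat, where 40.1% of all genes passed. Egr2 (-3.91 ± 0.41, edgeR adjusted p = 6.69e-05) and Npas4 (-4.14 ± 1.01, edgeR adjusted p = 0.00767) had negative interactions. Nr4a1 (2.56 ± 0.85), Fosb (1.83 ± 0.60), Egr1 (1.77 ± 0.61), Btg2 (1.59 ± 0.55) and Ier2 (0.99 ± 0.32) had positive ones, with edgeR adjusted p between 0.0296 and 0.0386. Those of Egr2 and Npas4 passed without any 1 mouse, and each of the other 5 was lost without at least 7 of the 12 mice, taken 1 at a time. That of Npas4 rests on 8 counts in the WT ND libraries.

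Cell markers moved in the same samples. Summed macrophage markers were 2654 to 3184 TPM in ob/ob fat on HFD, 2333 to 3249 TPM in ob/ob fat on ND and 4047 to 4341 TPM in WT fat on HFD, against 411 to 415 TPM in WT fat on ND, and 6 of the 8 rose both in ob/ob over WT on ND and on HFD over ND in WT mice. Summed white adipocyte markers were 13811 to 17955 TPM in ob/ob fat on HFD, 13105 to 19266 TPM in ob/ob fat on ND and 3148 to 12910 TPM in WT fat on HFD, against 47502 to 56290 TPM in WT fat on ND. The WT ND samples, with the lowest Egr2 and Npas4 and the highest Egr1, Nr4a1 and Btg2 means, were thus also those with the least macrophage and the most adipocyte signal. The part of cell composition in these results was not tested.

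**Figure D3:**
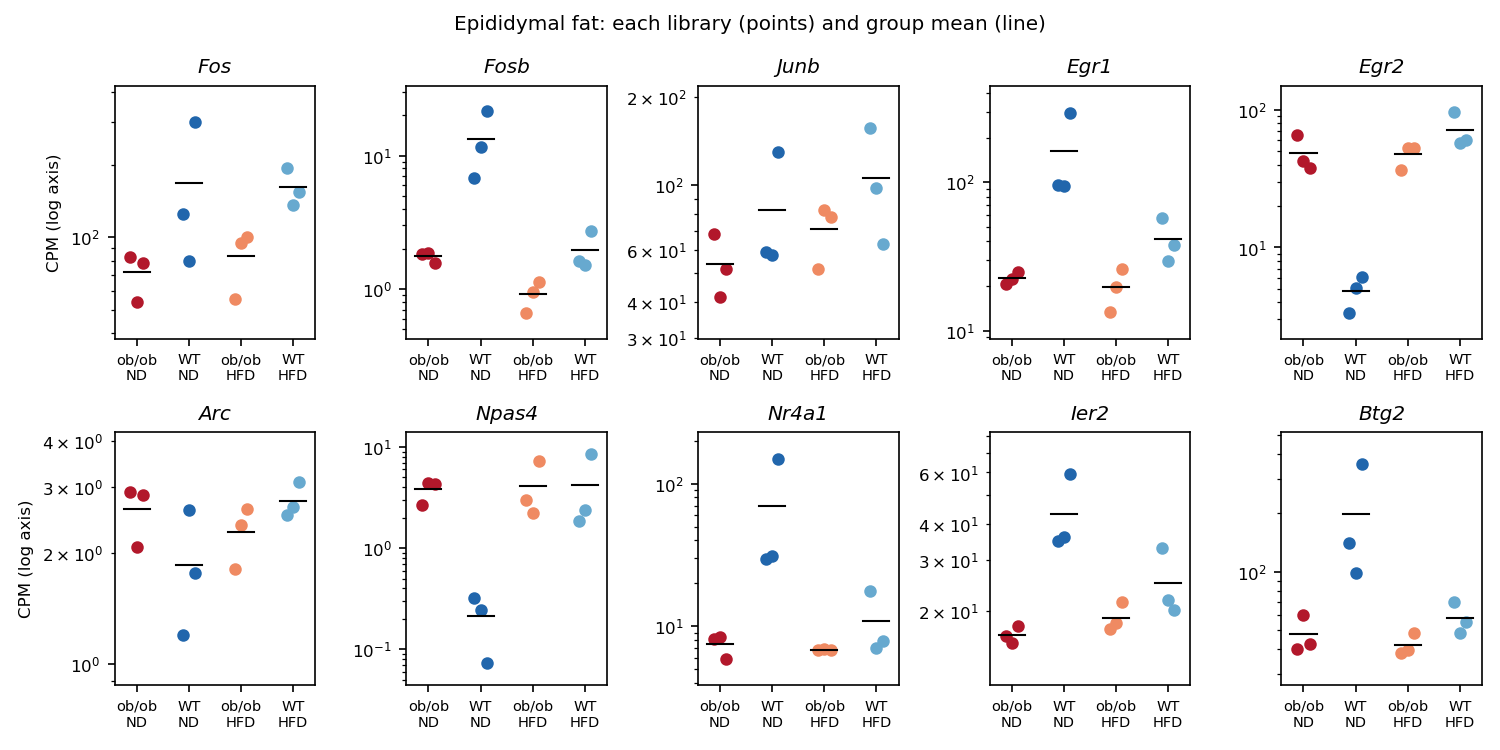
CPM of the 10 members in each epididymal fat library (points, log axis that differs between panels) and the mean of each group of 3 mice (line). WT ND stands apart, low for Egr2 (3.35 to 6.15 CPM) and Npas4 (0.0732 to 0.319 CPM) and high for Egr1 (94.9 to 295 CPM), Nr4a1 and Btg2.

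In liver, 7 members were testable, and 5 of them differed on ND, 1 higher and 4 lower in ob/ob, where 36.4% of all genes differed (19.3% higher and 17.1% lower). Egr1 had 8.81, 4.78 and 7.49 CPM in ob/ob livers on ND, against 21, 47.3 and 34.7 CPM in WT livers on ND (-2.29 ± 0.35, edgeR adjusted p = 0.000228). All 3 ob/ob values lay below all 3 WT values. Junb had 14, 13.6 and 23.7 CPM in ob/ob livers on ND, against 31.1, 35.4 and 30.5 CPM in WT livers on ND (-0.92 ± 0.19, edgeR adjusted p = 0.00254). Ier2 ran from 7.16 to 12.6 CPM in ob/ob livers on ND and from 18.8 to 22 CPM in WT livers on ND (-1.03 ± 0.18, edgeR adjusted p = 0.000588). Nr4a1 overlapped between the groups at WT mouse 1. It had 3.60, 2.60 and 2.85 CPM in ob/ob livers on ND, against 2.51, 11.5 and 14.2 CPM in WT livers on ND (-1.63 ± 0.47, edgeR adjusted p = 0.0158, lost without any of 4 mice).

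Egr2 in liver was scarce, with 31 counts in the 3 ob/ob livers on ND and 3 counts in the 3 WT livers on ND, a ratio of 8.30 (95% exact counting interval 2.59 to 42.4, which covers counting error only); it passed by edgeR (adjusted p = 0.00989). WT livers on HFD held 41 counts of Egr2 against the same 3 on ND (ratio 12.3, interval 3.92 to 62.1, edgeR adjusted p = 0.00506). Both contrasts share the 3 WT livers on ND. Besides Egr2, HFD against ND in WT livers changed only Egr1 past the threshold among the 7 (17.4 ± 6.02 CPM on HFD and 34.3 ± 13.1 CPM on ND, SD, n = 3 each, -0.97 ± 0.32, edgeR adjusted p = 0.045), where 21.8% of all genes differed, and that call was lost without any of 7 mice. Ier2 had an interaction in liver (0.92 ± 0.25, edgeR adjusted p = 0.0434, where 6.17% of all genes passed), which was lost without any of 9 mice. Macrophage markers summed to 56 to 58.7 TPM in ob/ob livers on ND and 21 to 65.8 TPM in WT livers on ND (3 of 8 higher), and white adipocyte markers to 302.9 to 373.8 TPM in ob/ob and 25.3 to 39.6 TPM in WT livers on ND (3 of the 5 tested higher). Their part in the liver results was not tested.

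In heart, 2 of 9 testable members differed on ND, both lower in ob/ob, where 6.48% of all genes were lower. Fos had 1.07, 2.03 and 5.07 CPM in ob/ob hearts on ND, against 7.43, 23.2 and 14.9 CPM in WT hearts on ND (-2.42 ± 0.48, edgeR adjusted p = 0.0037). Egr1 had 5.34, 8.53 and 19.7 CPM in ob/ob hearts on ND, against 26.8, 57.1 and 30.7 CPM in WT hearts on ND (-1.74 ± 0.34, edgeR adjusted p = 0.0037). Neither gene overlapped between the groups, and both calls passed without any 1 mouse. On HFD, Fos averaged 4.87 ± 2.5 CPM in ob/ob hearts and 8.29 ± 3.53 CPM in WT hearts (SD, n = 3 each), which did not pass (edgeR adjusted p = 0.272). Arc rose in ob/ob hearts as a mean over diets (1.55 to 4.06 CPM in ob/ob and 0.759 to 2.25 CPM in WT hearts, 6 each, 0.78 ± 0.26, edgeR adjusted p = 0.0325, where 14.6% of all genes rose), a call lost without any of 6 mice. The muscle-expressed Nr4a1 did not pass in heart (0.34 ± 0.24 over both diets, edgeR adjusted p = 0.292). Macrophage markers, of which 4 of 8 fell over both diets (15.5% of all genes), summed to 46 to 59 TPM in ob/ob hearts on HFD and 31.3 to 46.7 TPM on ND, against 51.7 to 74.8 TPM in WT hearts on HFD and 58.8 to 77.9 TPM on ND, and their part in the heart results was not tested.

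In skeletal muscle, 3 of 9 testable members differed on ND, where 45% of all genes did. Fos had 14.3, 17.7 and 28.8 CPM in ob/ob muscle on ND, against 103.9, 85.5 and 81.9 CPM in WT muscle on ND (-2.16 ± 0.61, edgeR adjusted p = 0.0171). Egr1 had 8.34, 7.48 and 22.9 CPM in ob/ob muscle on ND, against 59.3, 45.5 and 53.3 CPM in WT muscle on ND (-2.02 ± 0.60, edgeR adjusted p = 0.0199). Both fell with no overlap, and Fos lost its call without ob/ob ND mouse 1 and Egr1 without any of 3 mice. Egr2 had 4.11, 6.25 and 5.53 CPM in ob/ob muscle on ND, against 0.744, 0.975 and 1.04 CPM in WT muscle on ND (2.52 ± 0.57, edgeR adjusted p = 0.00714).

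On HFD the ob/ob muscles differed widely among themselves. Fos had 6.82, 27.6 and 70.1 CPM in ob/ob muscle on HFD, against 38.6, 25.8 and 32.8 CPM in WT muscle on HFD. Nr4a1 had 268.6, 11.1 and 38.9 CPM in ob/ob muscle on HFD, against 146.4, 186.1 and 150.9 CPM in WT muscle on HFD. The ob/ob mouse with the least Fos had the most Nr4a1. In the same 3 ob/ob HFD muscles, in the same order, markers of skeletal muscle fibres summed to 125886, 9833 and 29722 TPM and white adipocyte markers to 2441, 28089 and 14666 TPM. White adipocyte markers summed to 10145 to 17356 TPM in ob/ob muscle on ND, 4025 to 7903 TPM in WT muscle on HFD and 352 to 2187 TPM in WT muscle on ND, and 6 of 7 rose in ob/ob over WT on ND, as did 6 of 8 macrophage markers, where 26.6% of all genes rose. Their part in the muscle results was not tested.

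In aorta, 2 of 9 members differed on ND, both lower in ob/ob, where 15.9% of all genes were lower. Junb had 18.2, 26.9 and 26.6 CPM in ob/ob aorta on ND, against 32.5, 62.7 and 34.9 CPM in WT aorta on ND (-0.86 ± 0.29, edgeR adjusted p = 0.041). Ier2 had 13.3, 19.1 and 21.2 CPM in ob/ob aorta on ND, against 26.9, 36 and 26.3 CPM in WT aorta on ND (-0.73 ± 0.25, edgeR adjusted p = 0.0436). The groups did not overlap, but Junb lost its call without any of 6 mice and Ier2 without any of 8. Arc rose over both diets (2.20 to 5.59 CPM in ob/ob and 0.346 to 2.95 CPM in WT aorta, 6 each, 1.24 ± 0.40, edgeR adjusted p = 0.0263, where 20.3% of all genes rose), lost without any of 4 mice. Markers of skeletal muscle fibres, of which 6 of 7 rose over both diets (20.3% of all genes), summed to 23.2 to 199.9 TPM in ob/ob aorta on HFD and 28.4 to 134 TPM on ND, against 11.1 to 57.4 TPM in WT aorta on HFD and 16.6 to 24.3 TPM on ND, and their part in the aorta results was not tested. Of the exon bases of Junb, 173 are shared with Prdx2 on the opposite strand, and counting without strand cannot tell their reads apart.

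In hypothalamus, the seat of leptin's control of feeding, 3 of 9 members differed over both diets, all lower in ob/ob, where 8.36% of all genes were lower. Egr1 had 36.8, 38.9 and 47 CPM in ob/ob on ND and 29.1, 37.8 and 43.4 CPM in ob/ob on HFD, against 77.7, 76.9 and 67.9 CPM in WT on ND and 38.2, 48.9 and 53.9 CPM in WT on HFD (-0.61 ± 0.11, edgeR adjusted p = 0.0031). On ND the genotypes did not overlap and Egr1 was the 1 of 9 members past the threshold (-0.86 ± 0.15, edgeR adjusted p = 0.0093, lost without ob/ob ND mouse 1), where 2.98% of all genes were lower. Fosb ran from 3.84 to 6.92 CPM in the 6 ob/ob mice and from 5.06 to 9.77 CPM in the 6 WT mice (-0.47 ± 0.11, edgeR adjusted p = 0.0137). Arc ran from 13.2 to 20.3 CPM in ob/ob and from 17.7 to 26.3 CPM in WT mice (-0.39 ± 0.12, edgeR adjusted p = 0.0414), a call lost without any of 9 mice. All 6 oligodendrocyte markers fell with genotype in hypothalamus, where 8.36% of all genes fell, and 0 of 9 neuron markers passed in either direction. The part of oligodendrocyte content in these results was not tested.

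In hippocampus 0 of 10 members differed between genotypes over both diets by edgeR or DESeq2, and 0 had an unadjusted p under 0.05, where edgeR called 13.9% and DESeq2 16.3% of all genes. Arc had 130.1, 95.3 and 111.7 CPM in ob/ob on ND, against 150.8, 132.7 and 225.4 CPM in WT on ND (-0.59 ± 0.47, edgeR adjusted p = 0.503). On HFD it had 52.5, 181.1 and 111.3 CPM in ob/ob, against 64.7, 157.8 and 248.2 CPM in WT. On HFD the values within each group spread more widely than the group means of 114.9 CPM in ob/ob and 156.9 CPM in WT lay apart, and a genotype difference of that size was not detectable here.

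Whether the genotype difference itself differed between tissues was tested for each member and each of 21 tissue pairs (exact permutation of genotype within diet on the difference of log2 CPM within a mouse, two-sided). None of 210 comparisons passed the adjustment, with 47 at an unadjusted exact p under 0.05 and a smallest adjusted p = 0.117. The smallest exact permutation p that 400 arrangements allow, 0.005, was reached 9 times, 4 of them by Arc, whose mean log2 difference was 1.41 in aorta and 1.56 in liver against -0.49 in hippocampus and -0.39 in hypothalamus. In liver Arc was near 0, with at most 0.417 CPM in ob/ob and 0.0966 CPM in WT mice, and was not tested by edgeR. A call in one tissue and none in another is therefore not shown to be a difference between them.

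By member, Egr1 had the most calls. On ND it had a negative fold change in 7 of 7 tissues and fell in 5, and Fos was negative in 7 of 7 and fell in 3. These shares stand beside 12% of all genes lower and 13.7% higher over the tissues together. Egr2 rose on ND in fat and muscle, and also in liver, where the 3 counts of the WT ND livers mean that it passed the count filter through the other groups. HFD against ND in WT mice gave negative values in 7 of 7 tissues for Fos, Egr1, Nr4a1 and Ier2, of which 0, 2, 1 and 1 passed, where 12.1% of all genes passed in these tissues together. In ob/ob mice HFD against ND called 0 of 63 by edgeR, where 0.117% of all genes were called, with 5 at an unadjusted p under 0.05 and 1 by DESeq2 (0.393% of all genes), Btg2 higher on HFD in liver (0.94 ± 0.29, DESeq2 adjusted p = 0.0477).

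Related genes from lists were read in the same fits. Of 30 other immediate early genes, 28 were tested in epididymal fat and 19 differed on ND, 7 higher and 12 lower in ob/ob, with a median log2 fold change of -0.63 beside -0.01 for all genes, of which 25.2% were higher and 23% lower. Over both diets 3 of the 28 rose and 10 fell, where 20.6% of all genes rose and 15.2% fell. Klf4 (-1.09 ± 0.09, edgeR adjusted p = 1.33e-05) and Klf2 (-1.89 ± 0.19, edgeR adjusted p = 6.02e-05), Krüppel-like factors, and Zfp36 (-0.88 ± 0.12, edgeR adjusted p = 0.000353), which destabilises mRNAs, fell in ob/ob fat over both diets. In aorta 11 of 27 rose and 2 fell, where 20.3% of all genes rose and 19.3% fell. In heart 12 of 27 rose and 7 fell (all genes 14.6% and 15.5%), and in liver 7 of 25 rose and 9 fell (all genes 22.1% and 20.7%). In muscle 5 of 27 rose and 4 fell (all genes 27.8% and 20.8%). In hypothalamus 7 of 29 rose and 2 fell (all genes 7.15% and 8.36%), and in hippocampus 1 of 29 rose and 1 fell (all genes 6.42% and 7.46%). The stress gene Atf3 rose in aorta (2.04 ± 0.25, edgeR adjusted p = 6.92e-05) and heart (2.11 ± 0.24, edgeR adjusted p = 1.19e-05), and so did Nr4a3, a relative of Nr4a1 (1.79 ± 0.23 and 1.49 ± 0.21). In heart Atf3 and Nr4a3 were higher in ob/ob while Fos and Egr1 were lower. Ccn1, of the same list as Atf3, also fell in heart (-1.27 ± 0.16, edgeR adjusted p = 3.77e-05). In hypothalamus and hippocampus the clock gene Per1, also an immediate early gene, rose (0.68 ± 0.09, edgeR adjusted p = 0.000639, and 0.48 ± 0.11, edgeR adjusted p = 0.0181).

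The factors that induce these genes were listed too. Of 17, among them Srf, Creb1 and the Mef2 genes, 8 rose and 0 fell in aorta, 8 rose and 2 fell in epididymal fat, 5 and 1 in heart, 5 and 2 in liver, 3 and 6 in muscle, 1 and 2 in hypothalamus and 0 and 1 in hippocampus over both diets, to be read against the shares of all genes just given for each tissue. Srf itself rose in aorta (0.78 ± 0.13, edgeR adjusted p = 0.000517). Crem, whose product includes repressors of CREB targets, fell in liver (-0.69 ± 0.07, edgeR adjusted p = 6.97e-06), hypothalamus (-0.49 ± 0.07, edgeR adjusted p = 0.000889) and hippocampus (-0.37 ± 0.10, edgeR adjusted p = 0.0287). Of 24 genes of the MAP kinase cascade and its feedback inhibitors, 11 rose and 0 fell in aorta, 5 and 3 in epididymal fat, 7 and 4 in heart, 0 and 2 in hippocampus, 0 and 1 in hypothalamus, 8 and 4 of 23 tested in liver and 10 and 6 in muscle, beside the same shares. Egfr, a receptor upstream of the cascade, fell in ob/ob livers (-1.33 ± 0.21, edgeR adjusted p = 0.000264). Among 13 late response genes of neurons, Bdnf fell in hippocampus (-0.59 ± 0.12, edgeR adjusted p = 0.00866) and hypothalamus (-0.38 ± 0.09, edgeR adjusted p = 0.0122); 2 of 13 fell and 0 rose in hippocampus, where no member of the immediate early set passed.

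Mice of 1 group also differed from each other, and the members often moved in the same direction. The share of all genes that move with Fos in this way is not given here. The counts below therefore do not set the members apart from other genes, of which Kmo in muscle (r = 0.978) and Tmem229b in aorta (r = 0.965) followed Fos closely. After each library was centred on its group, Fos was correlated with the other members over 12 libraries of a tissue (permutation within groups, two-sided, 56 relations), and 16 relations passed an adjusted p of 0.05 by Pearson's r and 12 by Spearman's rho; r was above 0 in 52 of the 56. In hippocampus all 45 pairs of members had a positive r, from 0.65 to 0.97 with a median of 0.89. There Fos followed Npas4 most closely (r = 0.97, permutation p = 0.0009, adjusted p = 0.034; rho = 0.96, permutation adjusted p = 0.0383; r = 0.94 without the 2 libraries farthest from the median). Ier2 (r = 0.94) and Btg2 (r = 0.90) followed with permutation adjusted p = 0.034 and 0.0342. Fos and Egr1 had r = 0.94 in hypothalamus, 0.92 in muscle, 0.90 in heart, 0.89 in epididymal fat and 0.87 in aorta, each with a permutation adjusted p between 0.034 and 0.0392, and 0.80 in hippocampus and 0.70 in liver, which did not pass (permutation adjusted p = 0.0902 and 0.142).

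Muscle showed the other extreme. Of its 36 pairs 23 had a positive r, and Arc and Nr4a1 had r = -0.89. Fos had r = 0.92 with Egr1 but -0.62 with Nr4a1 and -0.58 with Btg2, and the relations with Nr4a1 and Btg2 did not pass (permutation adjusted p = 0.484 and 0.424). In epididymal fat Npas4 had r = -0.34 with Fos (permutation adjusted p = 0.416), where Egr1, Junb and Ier2 had 0.89, 0.81 and 0.79 (permutation adjusted p = 0.0392, 0.0369 and 0.0414). Sums of cell markers, centred in the same way, also moved with Fos: r was 0.84 for oligodendrocyte markers in muscle, 0.85 and 0.78 for hippocampal neuron markers in aorta and hypothalamus, and -0.79 for brown adipocyte markers in epididymal fat, over 12 libraries each. These were picked as the highest in size after their values were seen, and the sums were low in aorta (8.7 to 17.6 TPM) and muscle (9.8 to 77.3 TPM). The part of cell composition in these relations was not tested. Nor was that of the mouse number, as every member was lowest of its group most often in mouse 1.

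**Figure D4:**
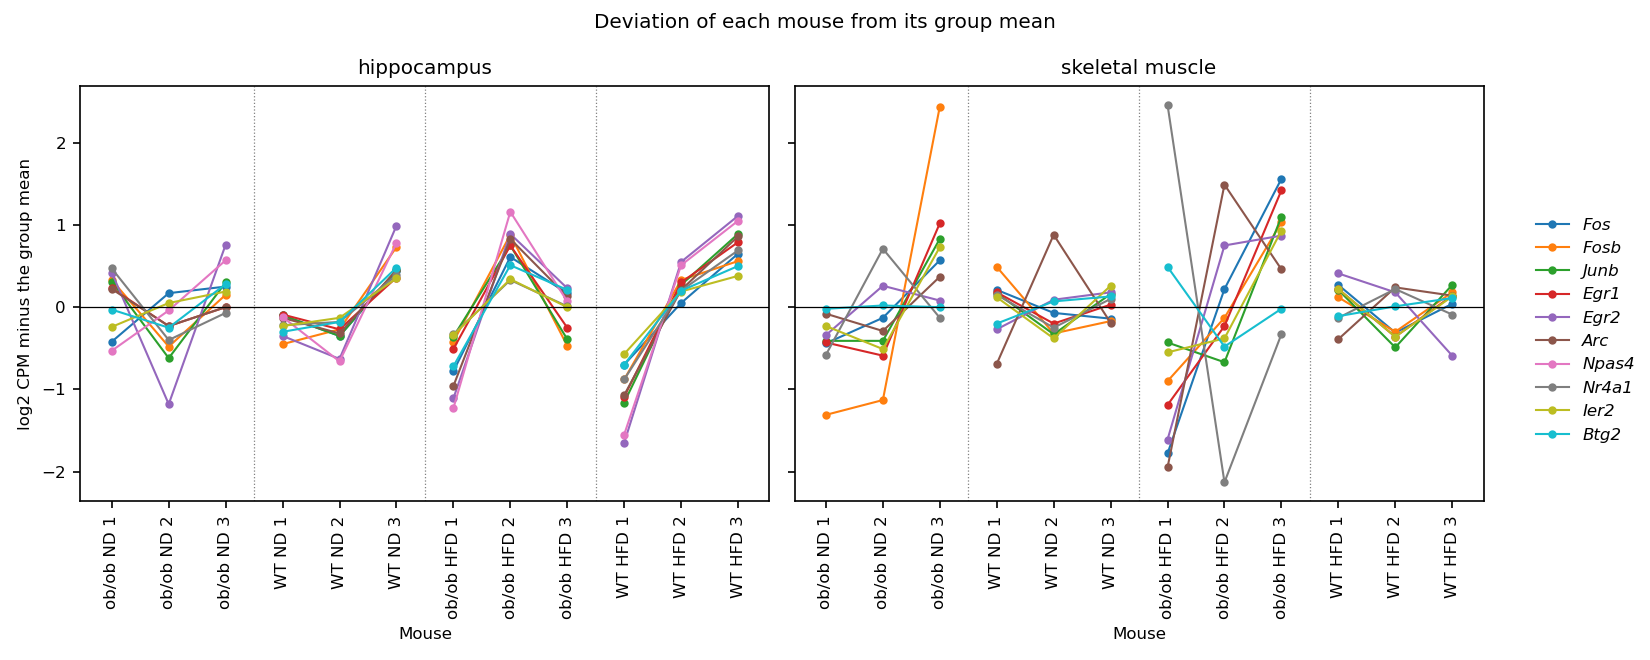
Log2 CPM of each member minus the mean of its group, for each of the 12 mice, in hippocampus (left) and skeletal muscle (right); lines join mice of 1 group and have no order in time. In hippocampus the lines of the members run together (r from 0.65 to 0.97), while in muscle Nr4a1 runs against Fos in the ob/ob HFD group.

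The same mouse often stood low in several tissues. ob/ob HFD mouse 1 had the lowest Fos of its group in 7 of 7 tissues, by -0.51 on the log2 scale in hypothalamus to -1.78 in muscle relative to the group mean, and the lowest Egr1 in 7 of 7. ob/ob HFD mouse 3 had the highest Fos in 5 of 7 tissues. In WT HFD mice, mouse 1 was lowest in 4 and highest in 3 of the 7. Deviations of Fos between tissues of the same mice had a positive r in 19 of 21 tissue pairs (median 0.51), and none passed an adjusted p of 0.05; the highest was aorta with heart (r = 0.88, permutation p = 0.00684, adjusted p = 0.144; rho = 0.87, permutation adjusted p = 0.24; r = 0.81 without the 2 mice farthest from the median). These between-tissue relations were added after the data were seen.

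**Figure D5:**
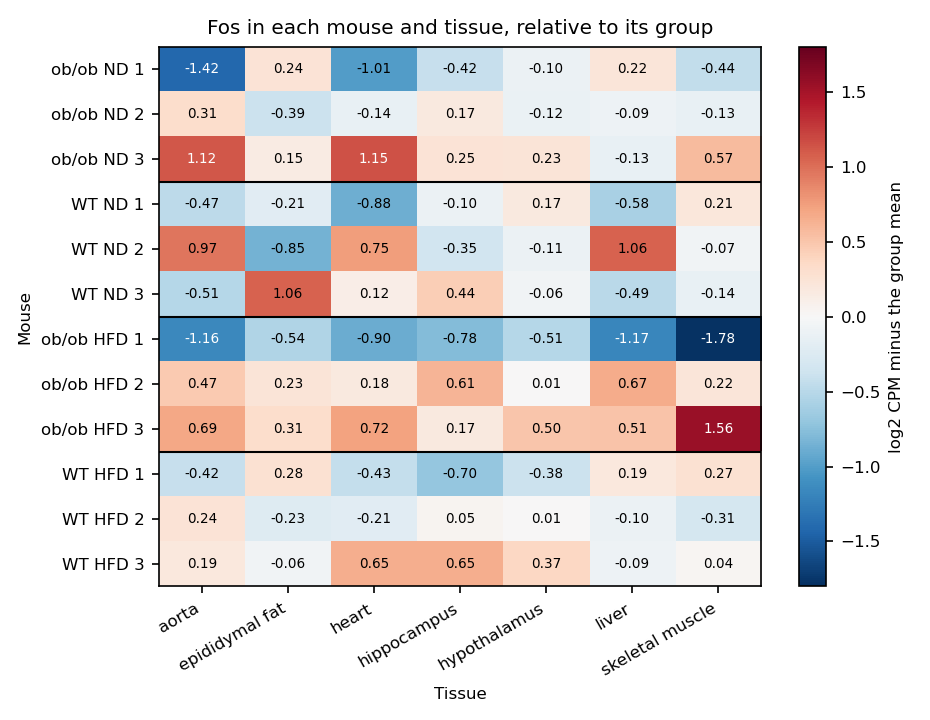
Log2 CPM of Fos in each mouse (rows) and tissue (columns) minus the mean of its group of 3, in colour and as a number. The row of ob/ob HFD mouse 1 is below its group in all 7 tissues, from -0.51 in hypothalamus to -1.78 in muscle.

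Over the 28 group means, the genes with levels most like each member were found by Pearson's r of log2(TPM + 0.1) among 22476 genes, as a description that tissue identity dominates. They were Arhgap25, Cyth4 and Nckap1l for Egr2 (r = 0.973, 0.968 and 0.960), Prkcb, Kcnab2 and St18 for Npas4 (0.983, 0.979 and 0.979), and Mmp17 and Cx3cl1 beside 2010300C02Rik for Arc (0.963, 0.963 and 0.970). Dusp1, a phosphatase gene that limits MAP kinases, was closest to Ier2 (0.926). Rabep2 was closest to Fos (0.938), Gng7 was second for Fosb (0.924), Itga4 was closest to Junb (0.907), Lman2l second for Egr1 (0.898), Myoc the third for Nr4a1 (0.865) and Tnxb closest to Btg2 (0.878). Within tissues, the gene outside the set that followed Fos most closely between mice of a group was Dusp1 in hippocampus (r = 0.954), Rbm4b in hypothalamus (0.935), Tmem229b in aorta (0.965), Srgap2 in epididymal fat (0.958), Ssu2 in heart (0.902), Adam15 in liver (0.947) and Kmo in muscle (0.978), over 12 libraries each and picked as the highest of 13214 to 16480 genes.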

How the data were processed

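The authors trimmed reads with Trimmomatic 0.36, aligned them with HISAT2 2.0.5 to GRCm38 and counted fragments per gene, per the submitters' processing notes. These notes name featureCounts 1.5.0-p2, while the file headers name version 1.5.1 with paired counting over exons and no strand option. The authors deposited raw counts per gene for each of 84 libraries, with the exon length of each gene. Counts went into edgeR 4.0.16 in R 4.3.3, 1 fit per tissue with 4 group means, TMM scaling and filterByExpr (smallest count 10, smallest total 15), and p-values were adjusted by Benjamini-Hochberg per tissue and contrast. Standard errors are the log2 fold change divided by the root of the F statistic. TPM was computed from counts and exon lengths for comparisons between tissues and genes. The script was tested on simulated data. DESeq2 1.42.0, DESeq2 size factors, testing every gene without a count filter, blocking on mouse number and leaving out each mouse were the alternatives.

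The labels number 3 mice per group, and the design text says that each mouse gave all 7 tissues. Libraries of the same group differed by more than sampling noise in all 84 replicate pairs (chi-square per degree of freedom 2.64 to 569.7). The members and gene lists were chosen with earlier results of these data known. All 10 members are described; from each other list the text names only genes among the 3 per tissue with the smallest p for the genotype mean and the 2 for the interaction, and likeness lists give the 3 highest correlations. The genotype was not checked on leptin RNA. Body weight, blood and body composition tables were not used here. P-values of edgeR rest on the spread between mice within groups, taken over the 4 groups of a tissue together. Leaving out a mouse of a group outside a contrast can therefore change a call. Those of the sign-flip and permutation tests come from rearranging signs, genotypes or the order within groups. Intervals on counts cover counting error only.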

Additional observations from a re-analysis of the deposited data

Results flagged for a closer look

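The effect of HFD differed between ob/ob and WT mice (ob/ob minus WT, edgeR's test of the interaction, adjusted p under 0.05) for 8 combinations of member and tissue, 7 of them in epididymal fat. The same test passed for 40.1% of all genes in epididymal fat and 6.17% in liver. In epididymal fat Egr2 had -3.91 and Npas4 -4.14 on the log2 scale, the latter resting on 8 counts in WT fat on ND. Nr4a1 had 2.56, Fosb 1.83, Egr1 1.77, Btg2 1.59 and Ier2 0.99 there, and Ier2 had 0.92 in liver. In fat the diet effect of Egr2 was -0.04 ± 0.27 in ob/ob mice and 3.87 ± 0.32 in WT mice, and that of Nr4a1 was -0.12 ± 0.63 in ob/ob mice and -2.69 ± 0.59 in WT mice. Macrophage markers (6 of 8 with a negative interaction, against 20.7% of all genes) and white adipocyte markers (6 of 7 with a positive one, against 19.4%) moved in the same samples. Their part in the result was not tested.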

How the results depend on the processing

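Of 60 calls of members, all 60 passed under DESeq2, under DESeq2 size factors and with no filter, 57 passed with the mouse number as a replicate block, and none changed direction in these alternatives. Leaving out each mouse kept 605 of 720 calls. The number of calls depended more on the setting. DESeq2 called 14 for HFD against ND in WT mice, against 9 by edgeR, 1 in ob/ob mice and 2 for genotype on HFD, against 0 by edgeR for both. With no filter on low counts the calls were 35 for genotype over both diets, 35 for genotype on ND, 6 for genotype on HFD, 24 for diet in WT mice, 5 for diet in ob/ob mice and 17 for the interaction. The cause was not tested. Shares of all genes are not set beside the counts of members under these settings or without 1 mouse. The counts are therefore not read as results about the members. Leaving out 1 mouse gave 18 to 25 calls over both diets, 16 to 24 on ND, 0 to 2 on HFD, 7 to 14 for diet in WT, 0 for diet in ob/ob and 2 to 9 for the interaction. It gave 23 to 26 tissue steps against 27, 0 tissue differences of the genotype effect, and 0 to 14 Fos relations against 16, where fewer orders within groups are possible by construction. Without centring on groups 33 Fos relations passed.

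The replicate block gave 29 calls over both diets, 25 on ND, 0 on HFD, 9 for diet in WT mice, 0 in ob/ob mice and 6 for the interaction, again without a share of all genes beside them. It ended the interactions of Btg2 and Nr4a1 in epididymal fat and the diet effect of Egr1 in WT livers. Libraries with the same number in different groups did not deviate together: the median correlation was -0.08 to 0.07 by tissue, with 2 to 6 of 18 pairs above 0.1, so over all genes the numbers were not taken to pair the mice across groups. For the members alone, mouse 1 was the lowest of its group more often than the others for every member, and pairing is not settled for them. With 3 mice a group, differences smaller than the spread between mice were not detectable.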

Other observations

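Other genes of the lists had interactions in the same tissues, by edgeR's test over all genes. In epididymal fat the diet effect in ob/ob relative to WT mice was negative for Spred1 (-1.74 ± 0.16, edgeR adjusted p = 2.96e-05), an inhibitor of the MAP kinase cascade, for Rps6ka2 (-1.82 ± 0.21, edgeR adjusted p = 0.000118), a kinase downstream of it, and for Mrtfb (-1.20 ± 0.14, edgeR adjusted p = 0.000135), a coactivator of SRF. It was positive there for Klf4 (1.40 ± 0.17, edgeR adjusted p = 0.000164) and the kinase gene Sik1 (1.22 ± 0.20, edgeR adjusted p = 0.000994). In liver it was positive for Egfr (2.82 ± 0.43, edgeR adjusted p = 0.00228), Dusp1 (2.09 ± 0.40, edgeR adjusted p = 0.00922) and Zfp36 (1.69 ± 0.18, edgeR adjusted p = 0.000272).

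Mice that carry the number 1 in the labels were often low for the members. Over 28 combinations of group and tissue, mouse 1 had the lowest Btg2 of its 3 mice in 20, the lowest Egr1 in 18 and the lowest Fos in 17, and mouse 3 the highest in 19, 16 and 15. For every other member too, mouse 1 was lowest most often and mouse 3 highest most often. The labels do not say what the number records, and tissues of 1 mouse are not independent.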
